A study of Rattus norvegicus with 18 samples.

Results

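The genes of corticotropin-releasing factor (CRF) and corticosteroid stress signaling were followed in rat dorsal hippocampus under a control diet, under an ethanol diet and after ethanol was withdrawn. The genes were chosen by name for their roles: Crh, its binding protein Crhbp and its receptors Crhr1 and Crhr2, the corticosteroid receptors Nr3c1 and Nr3c2, the steroid-converting enzyme Hsd11b1, and the corticosteroid-responsive genes Fkbp5, Sgk1 and Tsc22d3. They are 10 of the 38445 genes counted, and all 10 passed the filter on low counts. The animals were adult male Sprague-Dawley rats without a genetic change, with 6 rats per group. Control rats received Lieber-DeCarli liquid diet without ethanol. Ethanol rats received the same diet with 9% ethanol for 16 days and were taken at 0 h of withdrawal. Withdrawal rats received the 9% ethanol diet for 15 days and were then kept for 24 h on control diet. Each rat gave a bulk RNA library of whole dorsal hippocampus, so fewer cells of a type and less RNA per cell cannot be told apart.

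CRF is a peptide released in response to stress, and in the hippocampus it is made mainly by interneurons. It acts through CRF receptor 1, while CRF receptor 2 is bound preferentially by the urocortins, and CRF-binding protein is a secreted protein that sequesters the peptide. CRF from the hypothalamus drives pituitary and adrenal release of corticosterone, the main glucocorticoid of the rat. Corticosterone binds the mineralocorticoid receptor (Nr3c2) with high affinity and the glucocorticoid receptor (Nr3c1) with lower affinity, and both are abundant in hippocampal neurons. Inside the cell, 11β-hydroxysteroid dehydrogenase type 1 (Hsd11b1) regenerates corticosterone from its inactive 11-keto form. Fkbp5, Sgk1 and Tsc22d3 are transcribed in response to these receptors in many tissues.

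Counts on genes summed to between 30873228 and 42679748 per rat. Levels are given in CPM, a gene's count relative to the TMM-scaled total of its library, as the mean ± SD over 6 rats. The 6 control rats shared an index set (the sequences that tag libraries), the 6 ethanol rats and 2 withdrawal rats shared another, and 4 withdrawal rats had the third, so index set and control diet cannot be told apart. Markers of tissue next to the hippocampus differed between rats. The summed level of 6 choroid plexus markers (5 of them tested) was 1065 to 2225 CPM in control rats and 1404 to 5248 CPM in ethanol rats. In withdrawal rats it was 27.9 CPM in rat 4 and 29.7 CPM in rat 5, against 5249 CPM in rat 6. Withdrawal rat 5 also had the lowest summed level of 8 hippocampal subfield markers (7 tested), 265 CPM against 458 to 746 CPM in the other withdrawal rats. It had the highest summed level of 4 meningeal markers (3 tested), 387 CPM against 40.9 to 83.4 CPM. Each call in withdrawal rats is therefore also described without rats 4 and 5. The neuronal, astrocyte and oligodendrocyte markers were present in every rat, whereas Npy of the interneuron list, Fibcd1 of the subfield list and Col1a2 of the meningeal list were at or near 0. The reason for these low counts was not tested.

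In control rats the genes spanned a wide range of levels. In TPM, which also divides by exon length, Sgk1 was highest at 96.1 ± 28.9 TPM, followed by Nr3c2 at 82.7 ± 8.11 TPM, Tsc22d3 at 71.5 ± 7.46 TPM and Hsd11b1 at 70.3 ± 5.58 TPM. These 4 neighbours in the order were not separated, since no gene of the 4 was above the next in every control rat. Hsd11b1 was above Nr3c1 (51.0 ± 4.47 TPM) in every control rat, and Nr3c1 was not always above Fkbp5 (38.7 ± 8.69 TPM). The CRF genes were much lower. Crhbp reached 10.4 ± 0.780 TPM, Crhr1 4.20 ± 1.13 TPM, Crh 2.58 ± 0.501 TPM and Crhr2 2.48 ± 0.458 TPM, and only Crh and Crhr2 were not separated in every control rat. The 18 libraries held between 12 and 109 counts of Crh, so counting error weighs on Crh more than on the receptors Nr3c1 and Nr3c2.

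**Figure D1:**
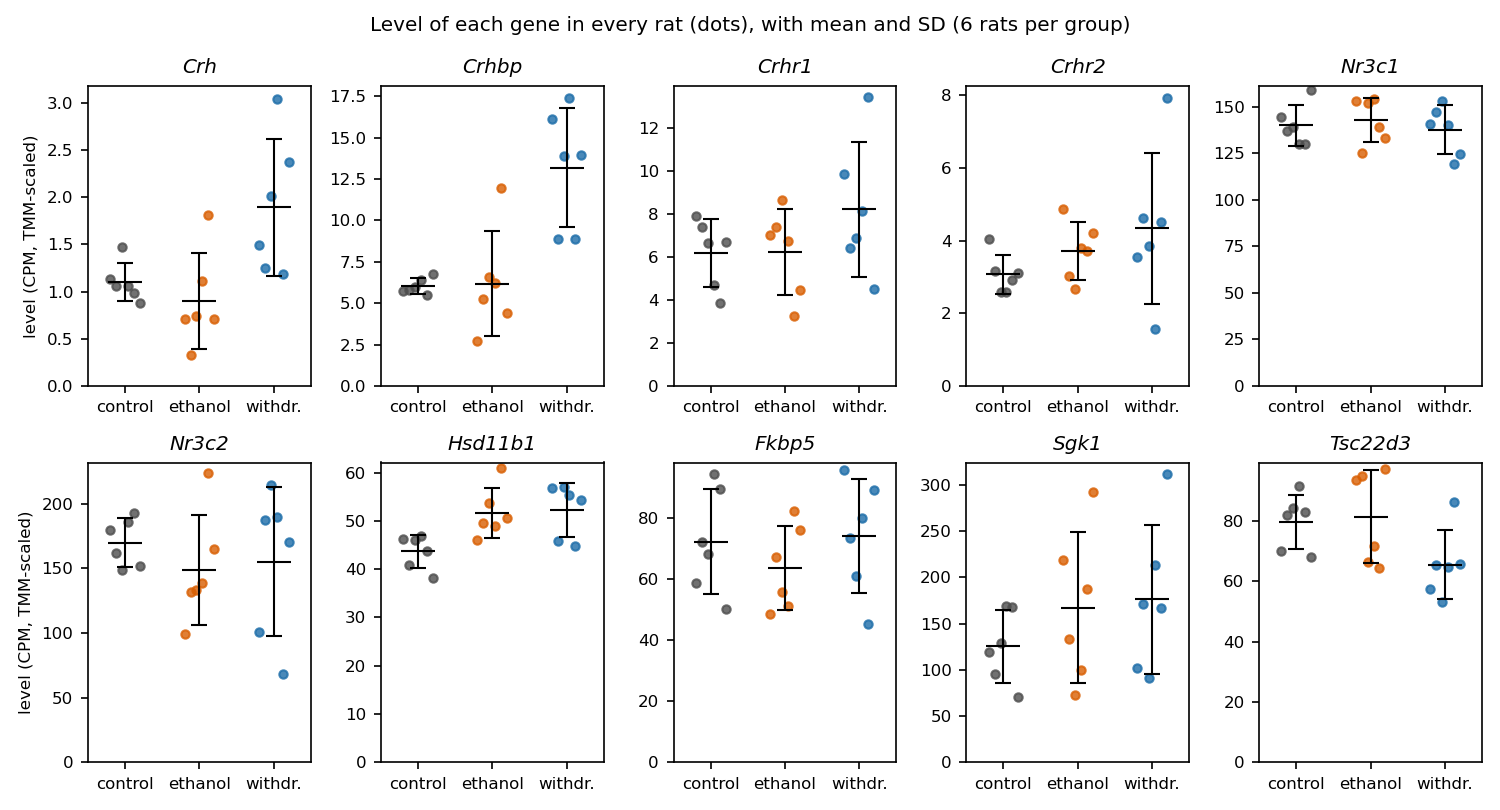
Level of each of the 10 genes in CPM with TMM scaling (vertical axes, all from 0) for every rat of the control, ethanol and withdrawal groups (dots, 6 per group). Horizontal bars give the mean and whiskers the SD. All 6 withdrawal rats lay above all 6 control rats for Crhbp, while the groups overlapped for the other 9 genes.

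Between withdrawal and control, 3 of the 10 genes rose: Crhbp, Hsd11b1 and Crhr2. The test was limma-voom with 3 surrogate variables (unnamed sources of variation estimated from the data), and a gene was called where the Benjamini-Hochberg adjusted p (q) was under 0.1 over the 17853 genes tested. Of all genes, 5.41% were called in this comparison, 2.85% as increased and 2.55% as decreased. In ethanol vs. control rats, 1 of the 10 genes rose (Hsd11b1), where 0.493% of all genes were called, 0.336% as increased and 0.157% as decreased. In withdrawal vs. ethanol rats, 1 of the 10 rose (Crhbp), where 2.72% were called, 1.23% as increased and 1.49% as decreased. Upper-quartile scaling moved the split over all genes, to 426 increased and 601 decreased (509 and 456 with TMM) for withdrawal vs. control and 34 and 28 (60 and 28) for ethanol vs. control, with the same numbers of the 10 genes called. None of the 10 fell in the 3 comparisons, and 5, 1 and 4 genes respectively had an unadjusted p under 0.05. Over all 17853 genes these numbers were 3518, 2225 and 2985, which also stand beside the lists and markers below. With edgeR's quasi-likelihood test and the same surrogate variables, 2, 1 and 1 of the 10 genes were called, where 5.77%, 0.538% and 2.98% of all genes were. DESeq2 without surrogate variables called 2, 0 and 2 of the 10, where it called 2.44%, 2.41% and 8.08% of all genes. The comparisons share rats: withdrawal and ethanol were each set against the same 6 control rats. Without surrogate variables, limma-voom called 0, 0 and 2 of the 10 genes, where 0.23%, 0.28% and 3.48% of all genes were called. An unadjusted p under 0.05 was then found for 4, 1 and 3 of the 10 and for 2153, 2015 and 3318 of all genes. Without withdrawal rat 6, 0 of the 10 were called in each comparison, where 23, 28 and 0 of all genes were called, and without withdrawal rats 4 and 5 together 0, 1 and 0, where 7, 124 and 221 of all genes were called. The numbers of the 10 at an unadjusted p under 0.05 were then 3, 1 and 3 without rat 6 and 5, 1 and 5 without rats 4 and 5. Over all genes they were 2486, 2135 and 1917 without rat 6 and 1839, 2546 and 2689 without rats 4 and 5.

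**Figure D2:**
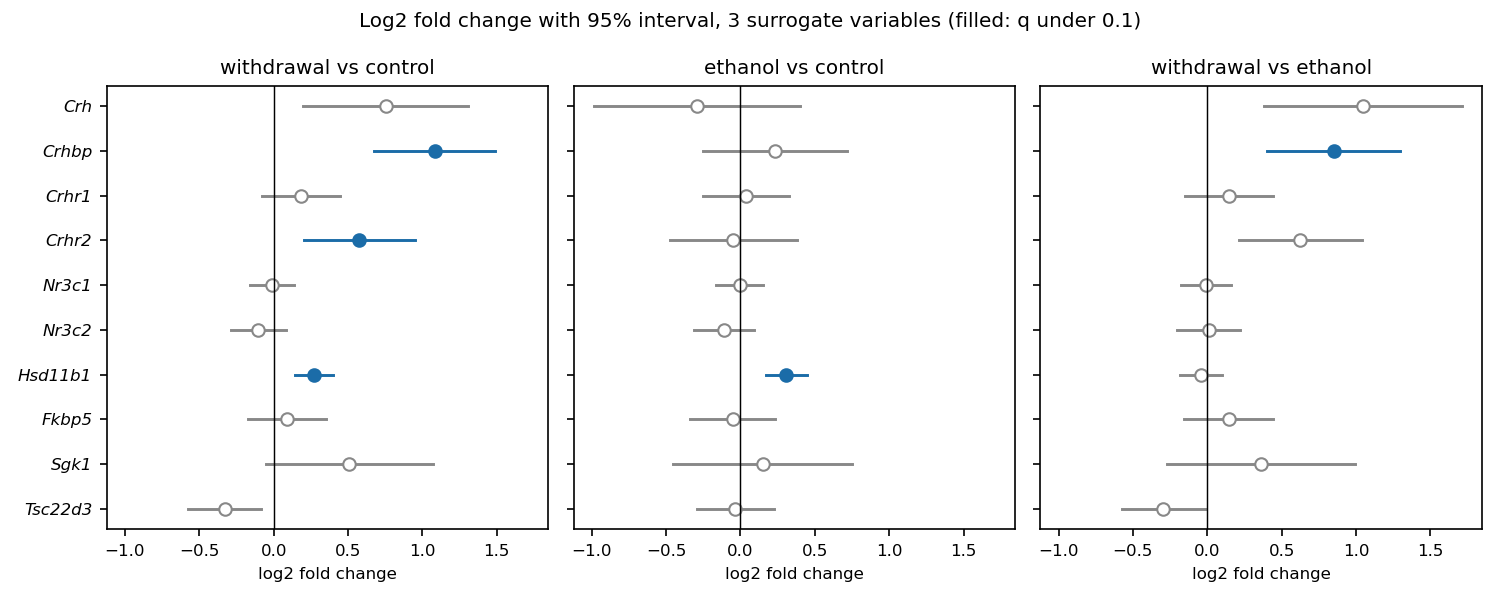
Log2 fold change (horizontal axis) of the 10 genes in the 3 comparisons, with 95% intervals (lines), from limma-voom with 3 surrogate variables. Filled circles mark q under 0.1: Crhbp, Hsd11b1 and Crhr2 for withdrawal vs. control, Hsd11b1 for ethanol vs. control and Crhbp for withdrawal vs. ethanol.

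Crhbp, which encodes the secreted protein that binds CRF, had the largest change of the 10 genes between withdrawal and control. Its level was 5.52 CPM in the lowest, 5.90 CPM in the median and 6.76 CPM in the highest control rat. In ethanol rats it was 2.70, 5.74 and 11.96 CPM, and in withdrawal rats 8.87, 13.9 and 17.4 CPM. The control rats lay close together, the withdrawal rats lay wholly above them, and ethanol rat 5 lay among the withdrawal rats. The means were 6.04 ± 0.456 CPM in control, 6.18 ± 3.15 CPM in ethanol and 13.2 ± 3.60 CPM in withdrawal rats, a ratio of means of 2.18 between withdrawal and control. The fit put the increase over control rats at 1.08 on the log2 scale (SE 0.19, q = 0.0195), and the exact permutation test of log2 CPM gave p = 0.00216, the smallest that 6 rats against 6 allow. Of all genes tested, 0.521% had all withdrawal rats above all control rats. Over ethanol rats the increase was 0.85 (SE 0.21, q = 0.0650, exact permutation p = 0.00649), and 4 of 6 withdrawal rats lay above all ethanol rats. The value for ethanol vs. control was 0.23 (SE 0.23, q = 0.723).

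The rise of Crhbp between withdrawal and control was called in 14 of 18 other analyses and in 17 of 18 fits without 1 rat. Without surrogate variables the log2 fold change was 1.06 with q = 0.115, without withdrawal rat 6 it was 0.96 with q = 0.114, and without withdrawal rats 4 and 5 it was 0.82 with q = 0.180. The rise over ethanol rats was called in 11 of 19 other analyses, not without withdrawal rats 4 and 5 (0.72, q = 0.125), and in 14 of 18 fits without 1 rat. The calls were lost without ethanol rat 2, 3 or 6 or withdrawal rat 6, where q rose to at most 0.358. Within the index set shared by 6 ethanol and 2 withdrawal rats, the log2 fold change between withdrawal and ethanol was 1.05 with q = 0.770.

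Crh, which encodes CRF itself, was higher in most withdrawal rats than in control rats, but did not pass the threshold. Its level was 0.883 CPM in the lowest, 1.06 CPM in the median and 1.47 CPM in the highest control rat, 0.323, 0.728 and 1.81 CPM in ethanol rats, and 1.18, 1.76 and 3.04 CPM in withdrawal rats. The groups overlapped, and 4 of 6 withdrawal rats lay above all control rats. The means were 1.10 ± 0.200 CPM in control, 0.902 ± 0.511 CPM in ethanol and 1.89 ± 0.728 CPM in withdrawal rats. For withdrawal vs. control its log2 fold change was 0.75 (SE 0.26, 95% interval 0.20 to 1.31, q = 0.131), with an exact permutation p of 0.0130 before any adjustment, and it was called in 1 of 18 fits without 1 rat. For withdrawal vs. ethanol it was 1.05 (SE 0.32, q = 0.112, exact permutation p = 0.0152), and this difference was called in 7 of 19 other analyses, among them the model without surrogate variables (q = 0.0777), and in 3 of 18 fits without 1 rat. Without 1 rat it ran from 0.68 (without ethanol rat 2, q = 0.415) to 1.38 (without ethanol rat 5, q = 0.0323). For ethanol vs. control it was -0.29 (SE 0.33, q = 0.766). Without withdrawal rats 4 and 5, Crh gave 0.44 (q = 0.670) against control and 0.90 (q = 0.202) against ethanol rats, and without surrogate variables 0.71 (q = 0.356) against control rats.

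The order of the rats by Crh and by Crhbp was compared within groups. Ethanol rat 5 had the highest level of both genes among ethanol rats, withdrawal rat 4 the highest of both and withdrawal rat 5 the lowest of both among withdrawal rats. Control rat 6 had the lowest Crh and the highest Crhbp level of its group, and the lowest ethanol rats were rat 2 for Crh and rat 1 for Crhbp. The ratio of Crhbp counts to Crh counts was 4.07 in the lowest, 5.53 in the median and 7.66 in the highest control rat, 3.80, 6.38 and 16.3 in ethanol rats, and 5.72, 7.01 and 10.8 in withdrawal rats. No difference of the ratio beyond the spread between rats was found by the exact permutation test, which gave p = 0.0758 for withdrawal vs. control, 0.318 for ethanol vs. control and 0.961 for withdrawal vs. ethanol.

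**Figure D3:**
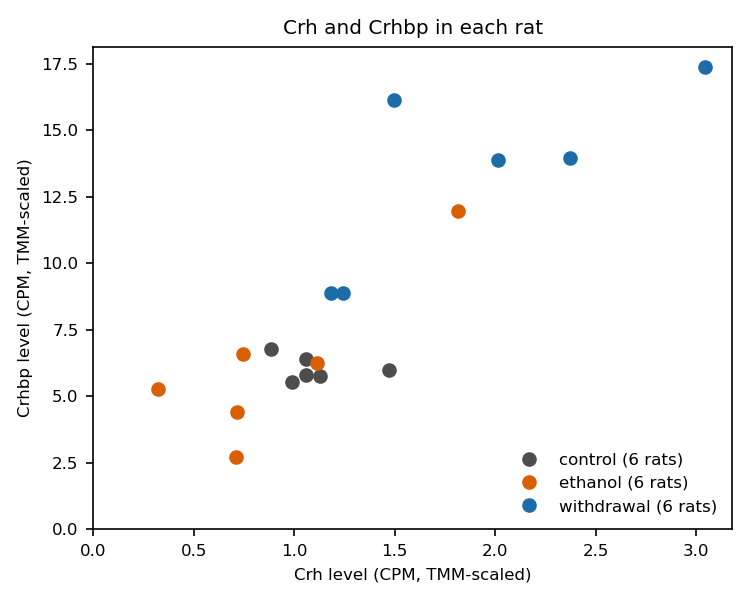
Crhbp level (vertical axis) against Crh level (horizontal axis), both in CPM with TMM scaling, in each of the 18 rats. The control rats lie between 5.52 and 6.76 CPM of Crhbp and the withdrawal rats between 8.87 and 17.4 CPM, while the Crh ranges of the groups overlap.

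Interneuron markers were examined beside both genes, because interneurons are a known source of CRF in the hippocampus. The summed level of the 8 interneuron markers, of which 7 were tested, was 516 to 661 CPM in control, 465 to 699.9 CPM in ethanol and 537 to 895 CPM in withdrawal rats. None of the 7 was called between withdrawal and control by limma-voom. An unadjusted p under 0.05 was found for 3 of the 7 and for 3518 of all 17853 genes tested. Of the 7, 6 were positive, and their median log2 fold change was 0.18, against 0.00030 over all genes tested. For the 7 it was 0.27 without surrogate variables and 0.11 without withdrawal rats 4 and 5. The somatostatin gene Sst had a log2 fold change of 0.18 (q = 0.261) and Gad2, a GABA-synthesizing enzyme, 0.21 (q = 0.128). In withdrawal vs. ethanol rats, Gad2 was called at 0.35 (q = 0.0578), and likewise without surrogate variables (0.62, q = 0.0821), but not without withdrawal rats 4 and 5 (0.39, q = 0.107) or without withdrawal rat 6 (0.28, q = 0.342). The part of interneuron number in the Crh and Crhbp levels was not tested. Withdrawal rat 5, which had the outlying subfield and meningeal markers, had the highest summed interneuron level (895 CPM) and the lowest Crh and Crhbp levels of its group. Its Crhbp level (8.87 CPM) was close to that of withdrawal rat 2 (8.88 CPM), which had 609 CPM of interneuron markers. Withdrawal rat 1 had the next highest interneuron level (772 CPM) and a Crhbp level of 16.1 CPM.

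The CRF receptors are G protein-coupled receptors. Crhr2, the urocortin-preferring receptor, was 2.58 CPM in the lowest, 3.01 CPM in the median and 4.06 CPM in the highest control rat, 2.66, 3.76 and 4.88 CPM in ethanol rats, and 1.56, 4.19 and 7.94 CPM in withdrawal rats. The withdrawal rats reached both below and above all control rats, and all 3 groups overlapped. The means were 3.07 ± 0.543, 3.72 ± 0.802 and 4.34 ± 2.08 CPM in the same order. With surrogate variables, the log2 fold change for withdrawal vs. control was 0.58 (SE 0.18, q = 0.0924), but the exact permutation test of the levels gave p = 0.310. The call was made in 7 of 18 other analyses and in 9 of 18 fits without 1 rat, and was lost when any control rat, ethanol rat 6 or withdrawal rat 3 or 6 was left out. Without surrogate variables the log2 fold change was 0.39 with q = 0.624, and without withdrawal rats 4 and 5 it was 0.62 with q = 0.203.

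The lowest Crhr2 level was that of withdrawal rat 4, which had the lowest choroid plexus sum of all rats (27.9 CPM), and the highest was that of withdrawal rat 6, which had the highest sum (5249 CPM). Withdrawal rat 5, with 29.7 CPM of choroid plexus markers and 387 CPM of meningeal markers, had a Crhr2 level of 4.52 CPM. The part of these tissues in the Crhr2 result was not tested. Against ethanol rats, Crhr2 of withdrawal rats had a log2 fold change of 0.63 (SE 0.20, q = 0.124), which was 0.12 without surrogate variables and 0.39 to 0.70 without 1 rat, the lowest without withdrawal rat 6. It was called in 3 of 19 other analyses and in 5 of 18 fits without 1 rat. Ethanol vs. control gave -0.05 (SE 0.20, q = 0.949), and 0.27 without surrogate variables, so no direction can be given.

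Crhr1, the receptor with high affinity for CRF, ranged from 3.84 to 7.93 CPM in control, from 3.26 to 8.64 CPM in ethanol and from 4.50 to 13.5 CPM in withdrawal rats, with medians of 6.67, 6.89 and 7.52 CPM. The groups overlapped, and the highest level was that of withdrawal rat 5. Its log2 fold change was 0.19 for withdrawal vs. control (95% interval -0.08 to 0.45, q = 0.430), 0.15 for withdrawal vs. ethanol (q = 0.640) and 0.040 for ethanol vs. control (q = 0.939). Without withdrawal rats 4 and 5 the value against control rats was 0.33 (q = 0.377), and without surrogate variables 0.34 (q = 0.665). Crhr1 was not called in any other analysis or fit without 1 rat.

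The region before the start of Crhbp and of Crhr2 is shown because both genes rose between withdrawal and control. The Crhr2 call was lost without surrogate variables (q = 0.624), and Hsd11b1, which also rose, had no promoter entry. RefSeq promoter entries of assembly GRCr8 were found for 7 of the 10 genes (13 starts in all), and these 250 bases before the start carry in capitals the letters CGTCA, the reverse complement of TGACG, which is the core of the cyclic AMP response element.
Crhbp (GRCr8, chr2:28439447-28439696, minus strand): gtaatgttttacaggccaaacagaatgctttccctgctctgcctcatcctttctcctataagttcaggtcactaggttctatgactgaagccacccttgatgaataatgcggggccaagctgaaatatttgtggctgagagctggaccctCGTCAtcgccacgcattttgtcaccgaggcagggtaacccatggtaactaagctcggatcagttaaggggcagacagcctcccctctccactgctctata
Crhr2 (GRCr8, chr4:85581464-85581713, minus strand): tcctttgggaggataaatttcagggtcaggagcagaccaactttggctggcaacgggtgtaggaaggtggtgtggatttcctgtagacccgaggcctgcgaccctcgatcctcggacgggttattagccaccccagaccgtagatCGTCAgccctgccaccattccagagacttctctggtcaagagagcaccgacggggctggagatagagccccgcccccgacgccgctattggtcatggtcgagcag
The letters begin 100 bases before the Crhbp start and 105 bases before the Crhr2 start. Before Tsc22d3, which was not called and is not printed, TGACG begins 75 and 65 bases from the start. On both strands, TGACG was found before 3 of the 13 starts, which belong to 3 of the 7 genes (Crhbp, Crhr2 and Tsc22d3), and in 18.2% of the 33469 promoter windows of the same length. Counted by gene, 5480 of 27457 genes had it before any of their starts. The full element TGACGTCA, which contains TGACG, was found before 0 of the 13 starts and in 1.59% of windows. The letters TGTTCT of the glucocorticoid response element were found before 0 of the 13 starts and in 17.5% of windows. A match describes the letters in these windows and is not a measured site.

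In the Rnor_6.0 assembly used for counting, Crhbp lies at chr2:25141471-25153334 on the minus strand with 7 exon blocks, and Crh at chr2:104459999-104461863 on the minus strand with 2. Crhr1 lies at chr10:92191473-92233662 on the plus strand with 15 exon blocks, and Crhr2 at chr4:85286371-85329374 on the minus strand with 14. The counts are those of whole exons of these genes, so coding and untranslated parts were not separated. No exon of the 10 genes overlaps an exon of another gene on the same strand, and counting was by strand. On the opposite strand, 155 exonic bases of Nr3c2 and 75 of Sgk1 overlap another gene.

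Hsd11b1 (chr13:111946626-111996536, minus strand, 8 exon blocks) rose modestly in both groups with an ethanol history. Its level was 38.3 CPM in the lowest, 44.9 CPM in the median and 46.8 CPM in the highest control rat, 46.0, 50.04 and 60.9 CPM in ethanol rats, and 44.7, 54.8 and 57.0 CPM in withdrawal rats. Of the ethanol rats 5 of 6 lay above all control rats, and of the withdrawal rats 4 of 6. The means were 43.7 ± 3.45, 51.6 ± 5.20 and 52.3 ± 5.57 CPM. The increase was 0.27 on the log2 scale in withdrawal rats (SE 0.061, q = 0.0335, exact permutation p = 0.0238) and 0.31 in ethanol rats (SE 0.065, q = 0.0809, exact permutation p = 0.00866). Withdrawal against ethanol gave -0.039 (95% interval -0.18 to 0.10, q = 0.811).

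The increase of Hsd11b1 kept its direction in every other analysis, but not its call. Between withdrawal and control it was called in 12 of 18 other analyses and in 17 of 18 fits without 1 rat. It was lost without surrogate variables (0.26, q = 0.221), without withdrawal rat 6 (0.25, q = 0.165) and without withdrawal rats 4 and 5 (0.20, q = 0.354). Between ethanol and control it was called in 10 of 18 other analyses and in 8 of 18 fits without 1 rat, and without surrogate variables it was 0.24 with q = 0.267. The call was lost without control rat 1, 2, 3, 4 or 6, ethanol rat 3, 5 or 6, or withdrawal rat 3 or 6, and q reached 0.225 at most.

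Blood markers moved in both groups in which Hsd11b1 rose, and vessel markers in withdrawal rats, by limma-voom with 3 surrogate variables. The summed level of the globin genes Hbb and Hba-a1 and the heme-synthesis gene Alas2 was 106.04 to 187 CPM in control, 30.2 to 80.2 CPM in ethanol and 35.7 to 126 CPM in withdrawal rats, and all 3 genes fell in both comparisons with control (log2 fold change of Hbb -1.51, q = 0.0195, and -1.59, q = 0.0562). Without surrogate variables 1 of the 3 was called for withdrawal vs. control and 3 for ethanol vs. control, without withdrawal rats 4 and 5 0 and 3, and without withdrawal rat 6 1 and 1. Of 6 endothelial and mural markers, 3 rose between withdrawal and control (Pecam1, Flt1 and Pdgfrb) and 0 between ethanol and control, with 5 and 2 at an unadjusted p under 0.05, and their summed level was 269 to 331 CPM in control, 296 to 348 CPM in ethanol and 294 to 419.6 CPM in withdrawal rats. Of 5 astrocyte markers, 2 fell between withdrawal and control (Gja1 and Aldh1l1). Of 7 tested hippocampal subfield markers, all 7 were negative between withdrawal and control, 1 fell (Prox1) and 3 had an unadjusted p under 0.05. Their median was -0.14, without surrogate variables -0.31 with all 7 negative, and without withdrawal rats 4 and 5 -0.100 with 5 of 7 negative. For withdrawal vs. control, 0 of the 6 vessel, 0 of the 5 astrocyte and 0 of the 7 subfield markers were called by limma-voom without surrogate variables or without withdrawal rats 4 and 5. The part of these cells in the results for withdrawal and ethanol rats was not tested. The cofactor-supplying enzyme of Hsd11b1, H6pd, had a log2 fold change of 0.0067 (q = 0.971) between withdrawal and control and 0.057 (q = 0.797) between ethanol and control. Hsd11b2, which inactivates corticosterone, did not pass the filter and was at most 0.327 CPM.

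The corticosteroid receptors were not called in any comparison. Nr3c1, the glucocorticoid receptor (chr18:31728373-32704022, minus strand), was 129.9 CPM in the lowest, 138 CPM in the median and 159 CPM in the highest control rat, 126, 146 and 154 CPM in ethanol rats, and 119, 141 and 153 CPM in withdrawal rats. The groups lay within the same range. Its log2 fold change was -0.013 for withdrawal vs. control (95% interval -0.16 to 0.14, q = 0.942), -0.0035 for ethanol vs. control (-0.16 to 0.15, q = 0.992) and -0.0095 for withdrawal vs. ethanol (-0.18 to 0.16, q = 0.971), all with intervals that spanned 0. After Hsd11b1, Nr3c1 had the smallest SE of the 10 genes between withdrawal and control (0.070).

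Nr3c2, the mineralocorticoid receptor (chr19:34408275-34761003, minus strand), varied more between rats. It was 148 CPM in the lowest, 171 CPM in the median and 193 CPM in the highest control rat, 99.4, 136 and 224 CPM in ethanol rats, and 68.7, 179 and 215 CPM in withdrawal rats. Low values were those of ethanol rat 1 and of withdrawal rats 5 (68.7 CPM) and 1 (101 CPM). The same rats had the lowest summed levels of hippocampal subfield markers in their groups, 489.6, 265 and 458 CPM, against 608 to 806 CPM in control rats. The part of the dissected subfields in the Nr3c2 level was not tested. The fit gave -0.10 on the log2 scale for withdrawal vs. control (95% interval -0.29 to 0.09, q = 0.557), -0.11 for ethanol vs. control (-0.31 to 0.09, q = 0.675) and 0.0088 for withdrawal vs. ethanol (-0.20 to 0.22, q = 0.979). The ratio of Nr3c2 to Nr3c1 per length had a median of 1.62 in control, 1.31 in ethanol and 1.76 in withdrawal rats, and ran from 0.771 to 2.15 over all rats. The exact permutation test of this ratio gave p = 0.442 for withdrawal vs. control, 0.242 for ethanol vs. control and 0.853 for withdrawal vs. ethanol.

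The corticosteroid-responsive genes Fkbp5, Sgk1 and Tsc22d3 were not called in any of the 3 comparisons by limma-voom with 3 surrogate variables. Fkbp5, a co-chaperone that restrains the glucocorticoid receptor (chr20:7976704-8097290, minus strand), was 50.3 CPM in the lowest, 70.1 CPM in the median and 94.6 CPM in the highest control rat, 48.7, 61.6 and 82.4 CPM in ethanol rats, and 45.3, 76.7 and 95.7 CPM in withdrawal rats. All 3 groups overlapped, and the ethanol rats did not reach the highest levels. The fitted log2 fold change was 0.090 for withdrawal vs. control (95% interval -0.17 to 0.35, q = 0.735), -0.053 for ethanol vs. control (q = 0.913) and 0.14 for withdrawal vs. ethanol (q = 0.648).

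Sgk1, a kinase that regulates ion channels and transporters (chr1:24185451-24302309, minus strand), was 70.6 CPM in the lowest, 124 CPM in the median and 169 CPM in the highest control rat, 72.4, 160.5 and 292 CPM in ethanol rats, and 90.9, 169 and 312 CPM in withdrawal rats. In both groups with an ethanol history 3 of 6 rats lay above all control rats and the others lay among them. The highest levels were those of ethanol rat 6 and withdrawal rat 6, which had 4877 and 5249 CPM of choroid plexus markers. Ethanol rat 1, with 5248 CPM of these markers, had the next highest Sgk1 level (218 CPM). Some other rats were not ordered in this way. Withdrawal rat 4 had 213 CPM of Sgk1 with 27.9 CPM of choroid plexus markers, and ethanol rat 4 had 100.3 CPM of Sgk1 with 3522 CPM. The part of choroid plexus in the Sgk1 level was not tested. Withdrawal vs. control gave a log2 fold change of 0.51 (SE 0.27, 95% interval -0.05 to 1.07, q = 0.302), ethanol vs. control 0.15 (q = 0.880) and withdrawal vs. ethanol 0.36 (q = 0.575). The value against control rats fell to 0.20 without withdrawal rat 6 (q = 0.786) and to 0.051 without withdrawal rats 4 and 5 (q = 0.9751).

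Tsc22d3, the glucocorticoid-induced leucine zipper gene (chrX:111884285-111944693, minus strand), had lower values in withdrawal rats but was not called. It was 68.1 CPM in the lowest, 82.3 CPM in the median and 91.3 CPM in the highest control rat, 64.3, 82.4 and 97.0 CPM in ethanol rats, and 52.9, 65.1 and 86.1 CPM in withdrawal rats. Of the withdrawal rats, 5 of 6 lay below all control rats, and rat 5 lay among them. The fit gave -0.33 on the log2 scale against control rats (SE 0.12, 95% interval -0.57 to -0.08), which did not pass the threshold (q = 0.136). The exact permutation test of the levels gave p = 0.0303 before adjustment, which rose to at most 0.0606 when 1 rat was left out. It was -0.40 without withdrawal rats 4 and 5 (q = 0.343) and -0.29 without surrogate variables (q = 0.360). The decrease was called in 2 of 18 other analyses and in 1 of 18 fits without 1 rat. Against ethanol rats it gave -0.29 (SE 0.13, q = 0.270), which ran from -0.39 to -0.14 without 1 rat, the smallest size being that without ethanol rat 2 (q = 0.708). For ethanol vs. control it gave -0.034 (q = 0.942). In all, 30 permutation tests of the 10 levels were made, and 7 had p under 0.05.

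**Figure D4:**
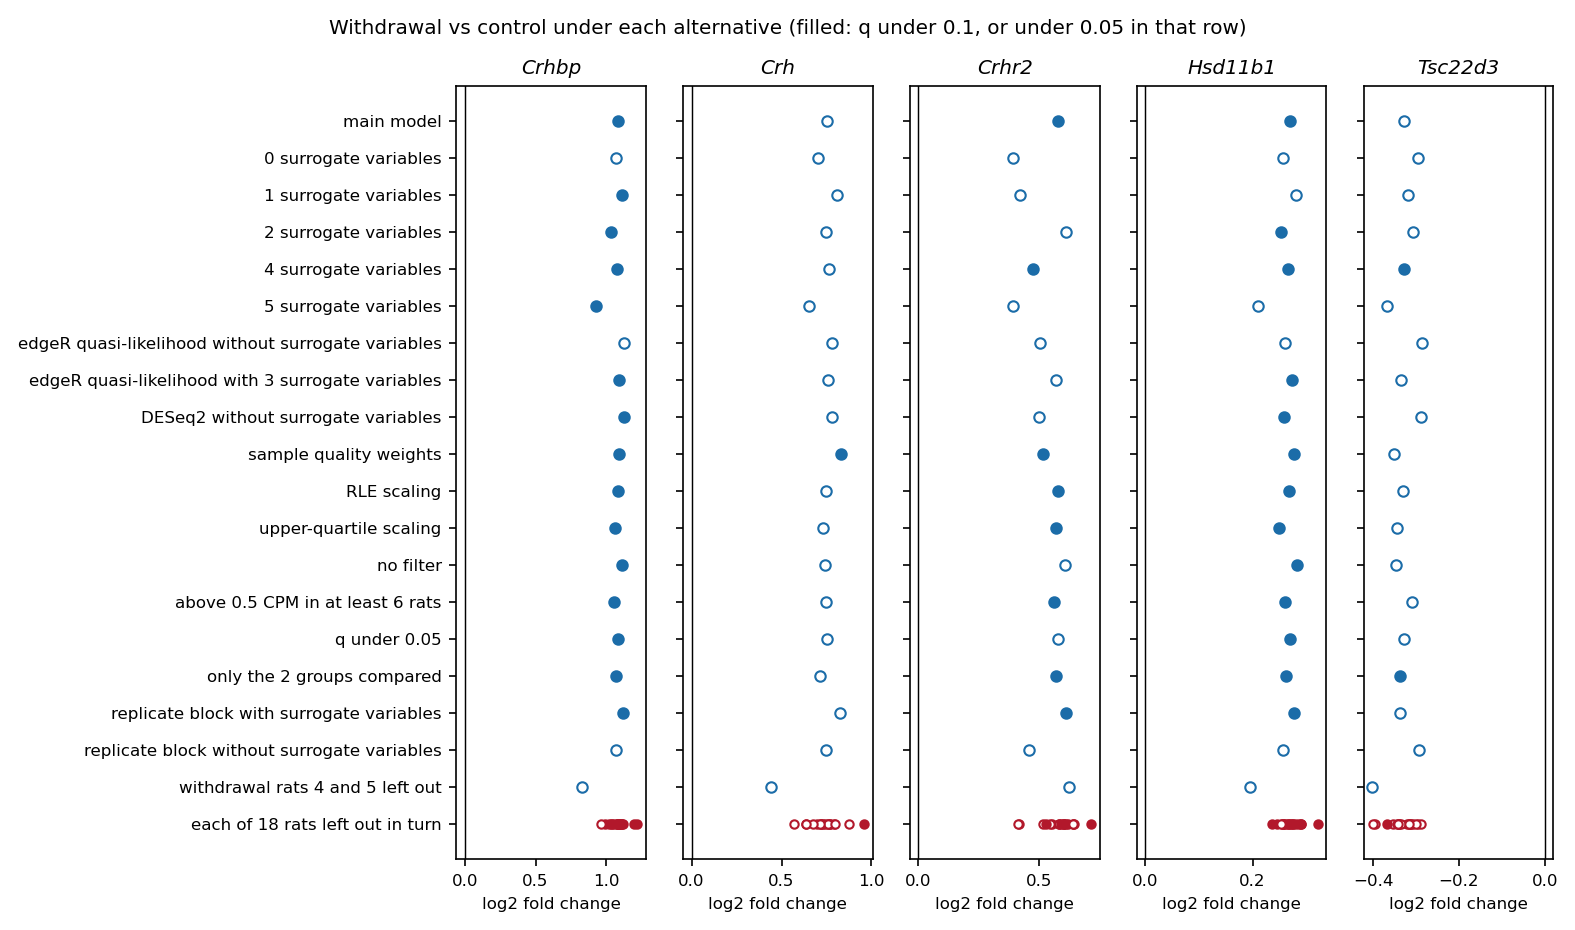
Log2 fold change between withdrawal and control (horizontal axes) of Crhbp, Crh, Crhr2, Hsd11b1 and Tsc22d3 in each analysis (rows). Filled circles mark q under 0.1 (under 0.05 in the row of that threshold), and the lowest row holds 18 fits with 1 rat left out. The direction was the same throughout for these 5 genes, while Crhbp was called in 14 of 18 other analyses and Crhr2 in 7.

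The genes around the 10 were described by lists of the pathway. Of 15 genes for CRF-family and pituitary-adrenal peptides and their receptors, 10 passed the filter, and by limma-voom 2 rose in withdrawal vs. control, 0 in ethanol vs. control and 1 in withdrawal vs. ethanol rats, with 4, 0 and 1 at an unadjusted p under 0.05. Their median log2 fold change was 0.077, -0.018 and 0.11, and without withdrawal rats 4 and 5 it was 0.0066, -0.033 and 0.0048. Without withdrawal rat 6 the median for withdrawal vs. ethanol was 0.038, and without surrogate variables that for ethanol vs. control was 0.019. Pam, which amidates neuropeptides including CRF, was 301 to 329.9 CPM in control, 262 to 326 CPM in ethanol and 326 to 419 CPM in withdrawal rats. It rose by 0.18 on the log2 scale (SE 0.037, q = 0.0226) between withdrawal and control and by 0.20 (SE 0.041, q = 0.0446) between withdrawal and ethanol. Without surrogate variables Pam was not called against control rats (0.21, q = 0.206) but was against ethanol rats (0.29, q = 0.0472), and without withdrawal rats 4 and 5 the values were 0.14 (q = 0.244) and 0.17 (q = 0.0954). Without withdrawal rat 6 both calls were lost (0.18, q = 0.123, and 0.19, q = 0.290). Avp, the vasopressin precursor, was far lower, at 0.306 ± 0.0994 CPM in control, 0.485 ± 0.127 CPM in ethanol and 0.775 ± 0.442 CPM in withdrawal rats, and rose by 1.12 (SE 0.35, q = 0.0949) between withdrawal and control. The call of Avp was lost without surrogate variables (1.17, q = 0.240), without withdrawal rats 4 and 5 (0.75, q = 0.539) and without withdrawal rat 6 (1.32, q = 0.156). The urocortins Ucn, Ucn2 and Ucn3, the other ligands of the CRF receptors, did not pass the filter and were at most 0.0929, 0.178 and 0.0538 CPM.

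Lists for the receptors' partners and for steroid handling held no gene called by limma-voom with 3 surrogate variables. Of 11 receptor chaperones and cofactors, 0 were called in the 3 comparisons by limma-voom, with 3, 0 and 3 at an unadjusted p under 0.05, and DESeq2 without surrogate variables called 2 between withdrawal and ethanol. Of 12 matched genes of steroid synthesis, conversion and transport, 8 passed the filter and 0 were called, with 3, 0 and 2 at an unadjusted p under 0.05. For these, edgeR's quasi-likelihood test and DESeq2, both without surrogate variables, each called 1 between withdrawal and ethanol, where edgeR so run called 3.82% of all genes. Of 3 epithelial sodium channel subunits, which are mineralocorticoid targets elsewhere in the body, 2 passed the filter, and none was called by limma-voom, edgeR or DESeq2, with 0 at an unadjusted p under 0.05.

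Of 20 other genes known to be induced by glucocorticoids, all passed the filter, and limma-voom with 3 surrogate variables called 2 increased and 1 decreased between withdrawal and control, with 8 at an unadjusted p under 0.05. With the same surrogate variables edgeR called 4 increased and 1 decreased, and DESeq2 without them called 0. Their median log2 fold change was 0.21, against 0.00030 over all genes, and 17 of the 20 were positive. Without withdrawal rats 4 and 5 the median was -0.027 with 10 of 20 positive, and without withdrawal rat 6 it was 0.084 with 11 positive, whereas without surrogate variables it was 0.20 with 17 positive. Cebpd, a transcription factor of the acute phase response, was 9.69 ± 1.84 CPM in control, 10.6 ± 2.39 CPM in ethanol and 14.3 ± 4.95 CPM in withdrawal rats, and rose by 0.59 (SE 0.15, q = 0.0504). Cdkn1a, the cell cycle inhibitor p21, was 13.9 ± 2.51, 24.7 ± 9.34 and 20.1 ± 8.34 CPM and rose by 0.57 (SE 0.17, q = 0.0860). Fam107a, an actin-bundling stress protein, was 422 ± 51.7, 433 ± 46.1 and 343 ± 78.8 CPM, and fell by 0.27 on the log2 scale (SE 0.077, q = 0.0757) between withdrawal and control and by 0.39 (SE 0.086, q = 0.0475) between withdrawal and ethanol.

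Between ethanol and control, 1 of the 20 rose by limma-voom, with 3 at an unadjusted p under 0.05, while DESeq2 called 3 increased, and the median was 0.087, which was -0.042 without withdrawal rats 4 and 5. This was Mt2A, a metallothionein, at 13.5 ± 2.77 CPM in control, 23.9 ± 6.67 CPM in ethanol and 18.3 ± 6.58 CPM in withdrawal rats, with a log2 fold change of 0.92 (SE 0.19, q = 0.0809). In withdrawal vs. ethanol rats, 1 of the 20 fell (Fam107a), 8 had an unadjusted p under 0.05, and the median was 0.14. This median was 0.045 without surrogate variables, -0.032 without withdrawal rats 4 and 5 and -0.10 without withdrawal rat 6, where 12 of the 20 were negative. Without surrogate variables, limma-voom called 0 of the 20 in each comparison. Without withdrawal rats 4 and 5, 0 were called for withdrawal vs. control (Cebpd 0.33, q = 0.292, Cdkn1a 0.27, q = 0.501, and Fam107a -0.15, q = 0.488), as was the case without withdrawal rat 6, and the fall of Fam107a against ethanol rats was called (-0.29, q = 0.0854), which was lost without withdrawal rat 6 (-0.33, q = 0.311). Per1 and Klf9, a clock gene and a transcription factor with direct glucocorticoid regulation, had log2 fold changes of 0.15 (q = 0.609) and 0.19 (q = 0.168) between withdrawal and control.

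**Figure D5:**
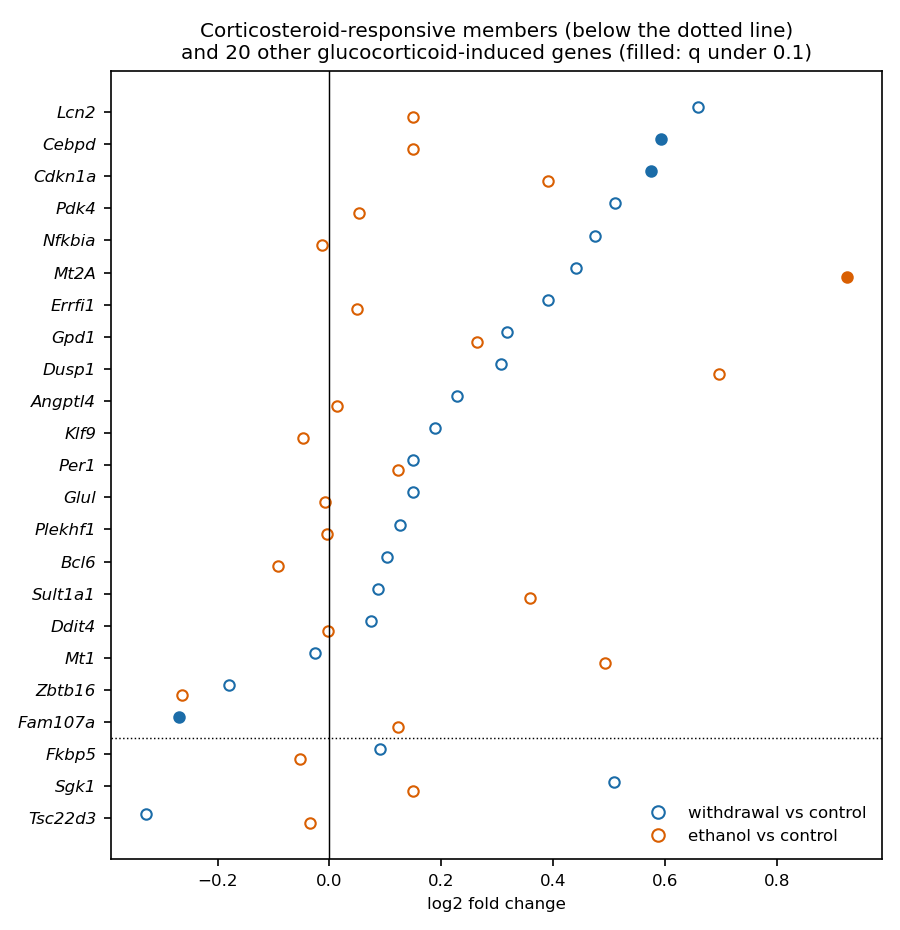
Log2 fold change (horizontal axis) of Fkbp5, Sgk1 and Tsc22d3 (below the dotted line) and of 20 other glucocorticoid-induced genes (above it) for withdrawal vs. control (blue) and ethanol vs. control (orange). Filled circles mark q under 0.1: Cebpd, Cdkn1a and Fam107a for withdrawal and Mt2A for ethanol.

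For each of the 10 genes, the 2 tested genes with the most similar level across the 18 rats were found by Pearson's r of log2 CPM. These correlations share libraries, depth and group differences and are given as a description. Crhbp was most like Spred3 (r = 0.897), a regulator of MAP kinase signaling, and Cort (r = 0.892), which encodes the interneuron peptide cortistatin. Crh was most like Rab10 (r = 0.904) and Thrap3 (r = 0.880). Crhr2 was most like the matrix metalloproteinase genes Mmp14 (r = 0.898) and Mmp2 (r = 0.896), and Crhr1 like Fnbp1l (r = 0.948) and Nxph4 (r = 0.941). Nr3c2 had the closest partners of all 10, Mink1 (r = 0.974) and Wasf1 (r = 0.971), whereas Nr3c1 was most like Tgfbr1 (r = 0.873) and Bin2 (r = 0.869). Hsd11b1 had the least similar partners, Ptpn2 (r = 0.818) and U2af2 (r = 0.816). Sgk1 was most like Ddit4 (r = 0.901), itself among the 20 glucocorticoid-induced genes, and Arrdc2 (r = 0.896). Fkbp5 was most like Ube2g2 (r = 0.899) and Pip5k1a (r = 0.892), and Tsc22d3 like Nt5c2 (r = 0.872) and Sds (r = 0.832).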

How the data were processed

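RNA of the dorsal hippocampus of 18 rats (6 per group) was sequenced as stranded, paired-end mRNA libraries. Per the file headers and labels, the values deposited by the authors are unnormalized counts of read pairs on the exons of each gene, made with STAR 2.5.2a on Rnor_6.0 and featureCounts 1.5.0 by strand, leaving out pairs with several alignments. Identifiers were named from RefSeq (GRCr8), which named 29322 of 38445, and were used for names only. Coordinates of genes are those of the deposited files, while promoters are RefSeq sequences in GRCr8.

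The 17853 genes above 0.5 CPM in any rat (1 or more) were scaled with TMM (edgeR 4.0.16) and tested with limma-voom (limma 3.58.1) in R 4.3.3. A single model held all 3 groups and 3 surrogate variables (sva 3.50.0, estimated from log2 CPM, prior count 2), with Benjamini-Hochberg adjustment within each comparison and q under 0.1 as threshold. Surrogate variables can absorb differences of dissection or group, and for most called results the value without them is also given. Intervals are 95% intervals of the fit. For single genes, log2 CPM values were also compared over all splits of 6 rats against 6 with an exact permutation test (two-sided, scipy 1.17.1). No 2 libraries of a group agreed within sampling noise (lowest chi-square per degree of freedom 5.74 in 45 pairs). The labels give each rat its own animal number.

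The 10 genes, the pathway lists and the marker lists were chosen with earlier results of these data known. The text names all 10 genes, up to 4 called genes per pathway list by smallest q, and the 2 genes most like each of the 10. Marker genes, H6pd, Hsd11b2, Per1, Klf9 and the urocortins were named after their values were seen. Of 121 other listed genes 120 were matched. Alternatives tried were models with 0 to 5 surrogate variables, edgeR's quasi-likelihood test, DESeq2 1.42.0, sample quality weights, other scalings, filters and thresholds, only 2 groups, the replicate number as a block, the second index set alone, and leaving out each rat.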

Additional observations from a re-analysis of the deposited data

How the results depend on the processing

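No gene that was called in a comparison changed direction in that comparison under any alternative run, and the scalings (RLE, upper-quartile) and the stricter filter gave the same counts of called genes (3 for withdrawal vs. control, 1 for ethanol vs. control and 1 for withdrawal vs. ethanol). The other counts moved by more than 1.5 times as follows, and the cause was not tested. For withdrawal vs. control, 0 of the 10 genes were called with 0 surrogate variables, 1 with 1 and 1 with 5, 0 with edgeR's quasi-likelihood test without surrogate variables, and 0 without withdrawal rats 4 and 5. For ethanol vs. control, 0 were called with 0, 1 or 2 surrogate variables, with edgeR's quasi-likelihood test or DESeq2 without surrogate variables, with no filter and at q under 0.05. For withdrawal vs. ethanol, 2 were called with 0 surrogate variables, 2 with 1, 0 with 2, 3 with 4 and 3 with 5, 2 with edgeR's quasi-likelihood test and 2 with DESeq2 without surrogate variables, 3 with sample quality weights, 0 with no filter, 0 at q under 0.05, 0 with only the 2 groups in the model, 0 within the second index set and 0 without withdrawal rats 4 and 5. Leaving out 1 rat at a time gave 0 to 4, 0 to 1 and 0 to 3 called genes for the 3 comparisons. The lowest count for withdrawal vs. control, 0, was that without withdrawal rat 6, where 23 of 17828 genes tested were called in all. Where 0 of the 10 genes were called by any of these tools or settings, 3 to 5, 1 to 2 and 1 to 5 of them had an unadjusted p under 0.05 in the 3 comparisons. Over all genes tested, the 965 called for withdrawal vs. control became 41, 112, 594 and 262 with 0, 1, 2 and 5 surrogate variables, 33 with edgeR and 435 with DESeq2 without them, 486 with no filter, 370 at q under 0.05 and 7 without withdrawal rats 4 and 5 (23 to 1911 without 1 rat). The 88 for ethanol vs. control became 50, 258, 221 and 322 with 0, 1, 4 and 5 surrogate variables, 431 with DESeq2, 440 with weights, 9 with no filter, 10 at q under 0.05 and 28 with only the 2 groups (0 to 258 without 1 rat). The 486 for withdrawal vs. ethanol became 1492, 260, 896 and 871 with 1, 2, 4 and 5 surrogate variables, 1443 with DESeq2, 1073 with weights, 166 with no filter, 112 at q under 0.05, 0 with only the 2 groups, 0 within the second index set and 221 without withdrawal rats 4 and 5 (0 to 1800 without 1 rat). Leaving out withdrawal rats 4 and 5 together was chosen after seeing the data, as were the alternatives of the permutation tests. Of the 98 alternative values of the 7 permutation tests under 0.05, 7 were at 0.05 or above, all for Tsc22d3.

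Rats with the same replicate number are different animals, and 4 of 18 correlations of their deviations were over 0.1 (range -0.325 to 0.383). In 4 of the 18, the correlation was highest with the rat of the same number. The rats were pair fed, and whether the number marks feeding pairs is not known here, so a pairing was not excluded. With the number as a block and surrogate variables, 3, 1 and 0 genes were called, and with the block and no surrogate variables 0, 0 and 0, with 3, 1 and 3 at an unadjusted p under 0.05. Over all genes, 914, 26 and 1 were called with the block and surrogate variables, and 0, 0 and 14 with the block alone.

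The log2 fold changes that changed sign all belong to differences that were not called. For withdrawal vs. control, Nr3c1 was 0.051 with 5 surrogate variables, 0.0029 with quality weights and 0.063 without withdrawal rats 4 and 5 (-0.049 to 0.088 without 1 rat). Nr3c2 was 0.018 with 5 surrogate variables and 0.074 without those rats. Fkbp5 was -0.13 with 5 surrogate variables, -0.0068 with weights and -0.13 without those rats (-0.041 to 0.22 without 1 rat). For ethanol vs. control, Crh ran from -0.61 to 0.036 without 1 rat and Fkbp5 from -0.11 to 0.016. Crhr1 was -0.015 with 0 surrogate variables, -0.057 with only the 2 groups and -0.00042 with the block alone (-0.026 to 0.17 without 1 rat). Crhr2 was 0.27 with 0 and with 1 surrogate variable, 0.27 with edgeR and with DESeq2 without them, 0.28 with the block alone, 0.024 with 4, 0.046 with only the 2 groups and 0.017 without withdrawal rats 4 and 5 (-0.18 to 0.043 without 1 rat). Crhbp was -0.10 with 0, -0.094 with 1 and -0.068 with the block alone (-0.027 to 0.41 without 1 rat). Nr3c1 was 0.028 with 0 and with 1 surrogate variable and with the block alone, 0.014 with 5, 0.029 with edgeR, 0.027 with DESeq2, 0.0090 with only the 2 groups and 0.0027 without withdrawal rats 4 and 5 (-0.036 to 0.059 without 1 rat). Sgk1 was -0.032 with only the 2 groups (-0.030 to 0.34 without 1 rat). Tsc22d3 was 0.014 with 0 surrogate variables and with the block alone, 0.017 with 1, 0.0053 with 2, 0.027 with edgeR and 0.025 with DESeq2 (-0.17 to 0.051 without 1 rat). For withdrawal vs. ethanol, Nr3c1 was 0.0043 with 4, 0.038 with 5, 0.0072 with weights, 0.021 within the second index set and 0.061 without withdrawal rats 4 and 5 (-0.076 to 0.12 without 1 rat). Nr3c2 was -0.0014 with 4, -0.014 with the stricter filter, -0.00065 with the block alone and -0.067 within the second index set (-0.062 to 0.12 without 1 rat). Hsd11b1 was 0.018 with 0, 0.046 with 1, 0.020 with edgeR and with DESeq2 and 0.019 with the block alone (-0.10 to 0.021 without 1 rat). Sgk1 was -0.18 within the second index set (-0.031 to 0.55 without 1 rat). At 12 to 109 counts per rat, depth limits what can be seen for Crh most of the 10 genes.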
